A study of Mus musculus with 15 samples.

Results

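The livers of 5 WT mice on an ethanol diet were compared with those of 3 WT mice that were pair-fed. The 8 liver libraries are part of a series of 15, whose other libraries come from Aldh2-/- mice on the same pair of diets (4 ethanol, 3 pair-fed). All animals were male C57BL/6 mice of 8 to 10 weeks. The ethanol and control diets were given while carbon tetrachloride (CCl4), a hepatotoxin used to scar the liver, was injected into the peritoneum 2 times a week over 8 weeks. Livers were taken 24 h after the final dose. For the pair-fed animals the sample titles name the diet only, whereas the treatment field and the protocol name CCl4 as well, so the injections in that group rest on those fields. WT mice are described as littermates of the Aldh2-/- mice, a knockout line from a commercial supplier that served here only for the test of whether the diet difference depended on genotype. No label states whether the diets, injections or extractions of the groups ran at the same time.

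Members were the genes whose level averaged 0.5 FPKM or more across the 8 WT libraries (FPKM is a fragment count normalised for gene length and for the size of the library), which gave 10809 of 23509 genes held by both deposited tables. The ethanol libraries are in one of these tables and the pair-fed libraries in the other, so diet and table cannot be told apart for any single gene. Libraries are named by diet and number. Values below are in the order ethanol WT 5, 6, 7, 11 and 12, then pair-fed WT 18, 19 and 20. A fold is the ratio of the group means in FPKM, a log2 difference is ethanol minus pair-fed on log2(FPKM + 1), and a gene was called at a Benjamini-Hochberg adjusted p under 0.05 from limma, two-sided, over all genes tested. These are whole livers, so fewer cells of a type and less RNA per cell cannot be told apart. Nothing in the labels says more about the replicates than that they are separate samples, and the p-values measure the spread between these samples.

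The liver clears ethanol mainly in hepatocytes, where alcohol dehydrogenase and, at high intake, the P450 enzyme Cyp2e1 make acetaldehyde, and mitochondrial Aldh2 turns acetaldehyde into acetate. The alcohol dehydrogenase and Aldh2 reactions load the cell with NADH, which is known to slow fatty acid oxidation and to favour fat storage. CCl4 is itself activated by Cyp2e1 in pericentral hepatocytes. Repeated injury of this kind is known to be followed by hepatocyte division and by activation of stellate cells into collagen-making myofibroblasts.

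Of the genes tested, 4563 were called, 3191 higher and 1372 lower under ethanol. These are 42.2% of the genes in either direction, 29.5% higher and 12.7% lower, against which the counts for each gene group are to be read. The libraries of both diets did not overlap for 4331 genes (40.1%). The median of all genes was 0.11 on the log2 scale, and rescaling moved the balance between directions. With each library's FPKM scaled to a common sum the median was 0.27, with median-ratio rescaling 0.04 and with quantile normalization 0.02. The share of called genes that were higher was 69.9% as deposited, 85.7% with a common sum, 57% with median ratios and 52.3% with quantiles. Of the 50 gene lists, 14 had a median whose sign changed with at least one of these scalings, which is given beside each of them.

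Relative depth could be read from the steps between low values: 15261 of 15767 values in 2611 low genes were whole multiples of one read within 0.01, in both tables with the same gene lengths. The step of each gene was taken from its own lowest value and the depths from low genes as well, so part of this count was set in advance. The libraries ranged from 81.1% to 100% of the deepest, ethanol WT 5, and total read numbers are not given in the sources used here. Summed FPKM was 509194 to 569701 under ethanol and 613288 to 624277 under pair-feeding. Ethanol WT 5 stood apart from its group: on the first principal component, which held 62.1% of the variance, it lay at -5.27, the other ethanol libraries between -27.7 and -19.3 and the pair-fed libraries between 30.0 and 35.9. It also held more RNA of other cell types. The summed FPKM of 5 cholangiocyte markers was 181 in it and 54.9 to 106 in the other ethanol libraries, and the 2 muscle markers Ckm and Acta1 summed to 23.7, against at most 0.0183 in the others. Without it, 5325 genes were called. Hepatocyte markers showed the labelled tissue in every library: 8 markers summed to 65114 to 81668 FPKM under ethanol and to 70538 to 81401 under pair-feeding.

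**Figure D1:**
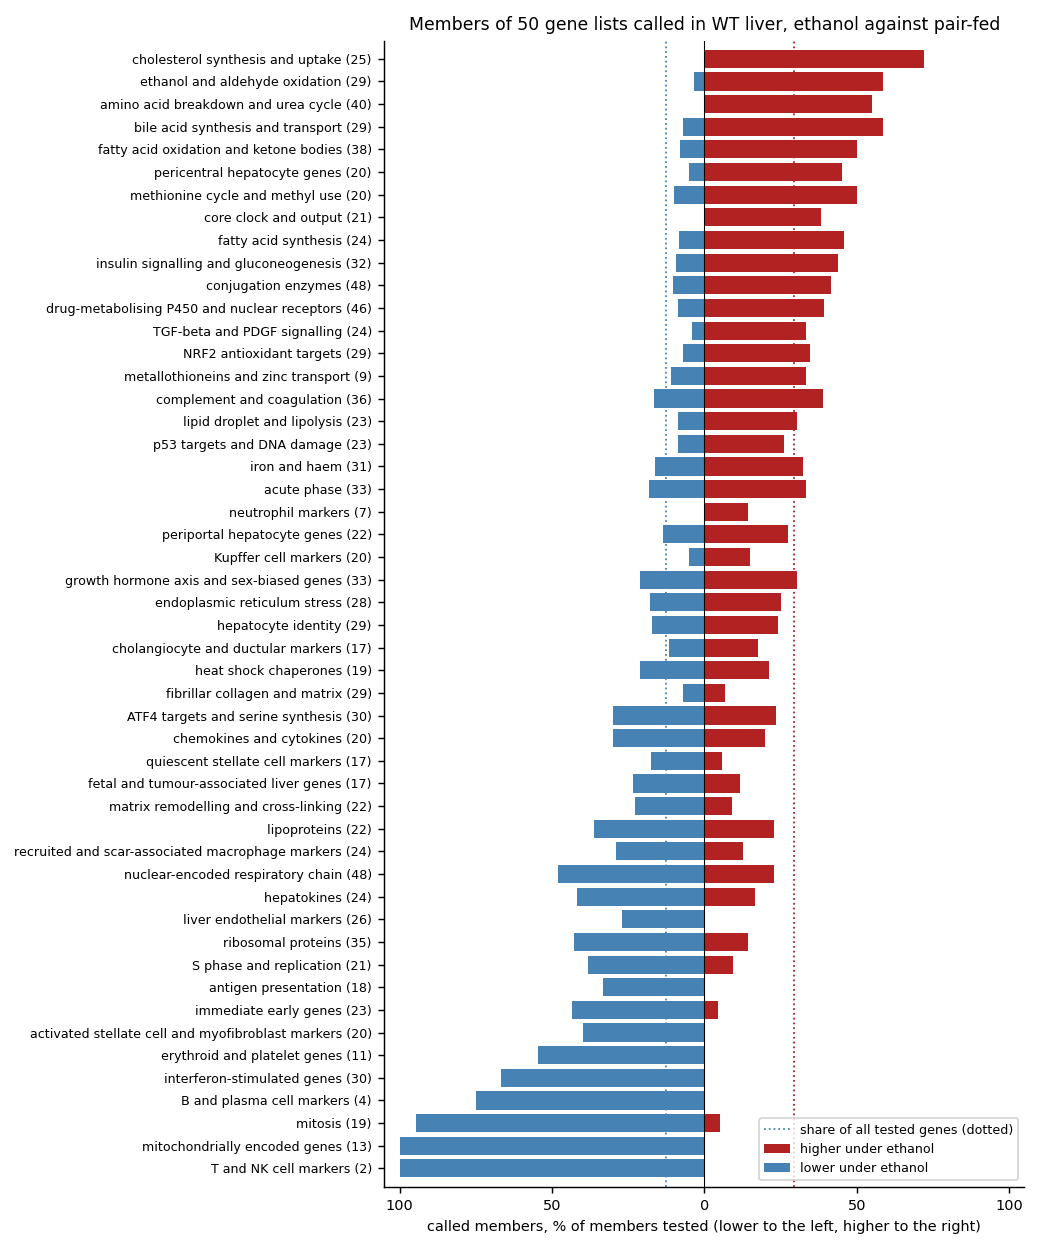
Share of tested members called in each of 50 gene lists (rows, with the number tested in brackets), higher under ethanol to the right in red and lower to the left in blue, in % of the members tested. Dotted lines mark the shares over all genes, 29.5% higher and 12.7% lower. Cholesterol synthesis (18 of 25 higher) stands at the top, and mitosis (18 of 19 lower) and mitochondrially encoded genes (13 of 13 lower) near the bottom. Lists of under 5 tested genes fill their row with few genes.

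Some of the gene groups have a short DNA motif known from textbook promoters of their kind, and a pair of promoters of each is shown because those genes had the smallest p among the called members whose promoter held it. The windows are the 250 bases before the RefSeq gene start (GRCm38.p6), read 5′ to 3′ on the gene's strand. Capitals mark the motif: TTTGAA for the mitosis genes Cdc20 and Ube2c, TTTC repeated after a gap of 2 bases for the interferon-stimulated genes Stat2 and Isg15, and TGATGNAA for the ATF4 targets Nupr1, which fell, and Chac1, which rose, each searched on both strands with overlapping matches kept.
Cdc20 (chr4:118437344-118437593, minus strand): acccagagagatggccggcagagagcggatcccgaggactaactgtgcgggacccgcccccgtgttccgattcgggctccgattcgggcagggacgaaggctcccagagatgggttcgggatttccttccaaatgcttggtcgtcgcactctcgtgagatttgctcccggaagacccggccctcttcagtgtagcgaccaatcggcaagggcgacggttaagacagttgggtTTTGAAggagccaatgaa
Ube2c (chr2:164769679-164769928, plus strand): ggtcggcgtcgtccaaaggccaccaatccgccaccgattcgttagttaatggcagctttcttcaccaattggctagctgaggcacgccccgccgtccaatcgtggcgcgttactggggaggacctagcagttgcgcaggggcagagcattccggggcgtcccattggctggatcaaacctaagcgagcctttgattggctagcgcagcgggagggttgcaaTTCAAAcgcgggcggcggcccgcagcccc
Stat2 (chr10:128270248-128270497, plus strand): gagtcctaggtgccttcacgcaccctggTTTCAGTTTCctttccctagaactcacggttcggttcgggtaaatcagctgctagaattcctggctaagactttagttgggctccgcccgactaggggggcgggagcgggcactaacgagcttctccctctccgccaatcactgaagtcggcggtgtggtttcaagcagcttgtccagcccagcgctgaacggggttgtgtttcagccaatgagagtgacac
Isg15 (chr4:156200819-156201068, minus strand): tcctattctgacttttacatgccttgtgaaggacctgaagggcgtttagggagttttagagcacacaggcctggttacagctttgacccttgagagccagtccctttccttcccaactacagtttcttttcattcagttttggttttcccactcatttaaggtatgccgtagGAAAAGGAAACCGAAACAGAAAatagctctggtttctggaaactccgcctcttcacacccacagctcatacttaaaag
Nupr1 (chr7:126625471-126625720, minus strand): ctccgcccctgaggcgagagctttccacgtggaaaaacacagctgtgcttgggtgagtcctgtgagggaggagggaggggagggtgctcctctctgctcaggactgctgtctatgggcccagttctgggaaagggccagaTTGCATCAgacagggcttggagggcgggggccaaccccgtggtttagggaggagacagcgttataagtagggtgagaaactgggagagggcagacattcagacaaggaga
Chac1 (chr2:119350992-119351241, plus strand): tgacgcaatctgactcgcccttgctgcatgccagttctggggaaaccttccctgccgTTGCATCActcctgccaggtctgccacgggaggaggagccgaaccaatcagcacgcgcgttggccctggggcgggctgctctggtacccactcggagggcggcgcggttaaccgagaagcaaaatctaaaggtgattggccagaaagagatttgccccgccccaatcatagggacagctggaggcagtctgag

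The mitosis motif began 18 bases before the start of Cdc20 and 29 before that of Ube2c. In the 300-base windows (250 before to 50 after the start), TTTGAA was held by 12 of 14 called mitosis genes with a promoter in the table and by 17.9% of all 32851 promoters. Isg15 had 3 overlapping matches, the nearest 66 bases before its start. The spaced TTTC repeat was held by 11 of 17 called interferon-stimulated genes and by 3.44% of all promoters. Of the called ATF4 targets, 6 of 14 held TGATGNAA, against 3.97% of all promoters. The endoplasmic reticulum stress element (CCAAT and CCACG with 9 bases between) was in 4 of 11 called members of its list and in 0.119% of all promoters. GAANNTTC was in 3 of 5 called heat shock genes against 7.86% of promoters, and TGACNNNGC in 4 of 10 called NRF2 targets against 12.4%. None of the called members held the motif searched in the cholesterol list (TCACNCCAC, 0 of 11), the fatty acid oxidation list (AGGTCA repeated after 1 base, 0 of 18) or the clock list (CACGTG, 0 of 6), which says only that these letters are not in the windows. A gene counted as holding a motif if any of its promoters did, so the like share is per gene. Over 27025 genes it was 20.2% for TTTGAA, 3.99% for the TTTC repeat and 4.51% for TGATGNAA. It was 0.137% for the stress element, 9.04% for GAANNTTC and 14% for TGACNNNGC. Among all tested members with a promoter, called or not, 12 of 14 mitosis, 14 of 24 interferon-stimulated and 8 of 25 ATF4 genes held their motif. So did 9 of 25 endoplasmic reticulum stress, 9 of 14 heat shock and 9 of 25 NRF2 genes. For the cholesterol, fatty acid oxidation and clock lists it was 1 of 17, 0 of 27 and 4 of 17. The lists are small and were compiled from genes known for these programmes, so a motif share describes them and tests nothing.

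Genes of the ethanol and aldehyde oxidation list were called higher more often than lower under ethanol. Aldh2 was among the higher ones, while the main alcohol dehydrogenase gene was not called. Aldh2 (GRCm38 chromosome 5, 121566027 to 121593824, minus strand), the mitochondrial enzyme that clears acetaldehyde, measured 544, 651, 605, 688 and 685 FPKM under ethanol and 277, 309 and 284 under pair-feeding. Every ethanol library lay above every pair-fed one, with ethanol WT 5 the lowest of its group. The means differed 2.19-fold, a log2 difference of 1.12 ± 0.12 (SE), adjusted p = 2.14e-04. In Aldh2-/- liver, where the gene is targeted, its RNA differed between the diets by 0.55, and that RNA is no measure of enzyme. Adh1, which makes most hepatic acetaldehyde, measured 1204, 1072, 1236, 1123 and 1042 FPKM under ethanol and 1064, 1679 and 1023 under pair-feeding. Its groups overlapped, only pair-fed WT 19 stood high, and the log2 difference of -0.11 ± 0.17 was not called (adjusted p = 0.63).

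Cyp2e1, which oxidises both ethanol and CCl4, had 1952, 2069, 2185, 3050.5 and 2068 FPKM under ethanol and 1035, 1555 and 851 under pair-feeding. The groups did not overlap, ethanol WT 11 was the highest, and the ratio of means was 1.97 (adjusted p = 0.0041). Catalase, a minor route of ethanol oxidation, was close in both groups at 928 ± 163 against 792 ± 1.53 FPKM (SD, n = 5 and 3; adjusted p = 0.29). In all, 17 of 29 tested genes of this list rose and 1 fell, with a median log2 difference of 0.53 against 0.11 over all genes. With median-ratio rescaling 13 rose and 1 fell, and with quantile normalization 14 rose and 2 fell. The risers included Adh5 (1.53-fold, adjusted p = 0.0011), the mitochondrial Aldh1b1 (1.88-fold, 0.0064), and Aldh6a1 of valine breakdown (2.11-fold, 3.07e-04). Aldh1l1, a folate enzyme, rose 1.89-fold (adjusted p = 9.43e-04). Acss2, which activates acetate to acetyl-CoA, rose 2.16-fold (adjusted p = 0.0011). Me1, which makes NADPH from malate, rose 2.68-fold (adjusted p = 3.05e-04). The member that fell was Aldh18a1, a proline synthesis enzyme at under 1 FPKM, with 0.378 ± 0.0958 against 0.77 ± 0.0381 FPKM (adjusted p = 0.0075). Adh4 had 19.4 ± 3.36 against 24.6 ± 2.62 FPKM and was not called (adjusted p = 0.089). It was called only with quantile normalization (adjusted p = 0.0205).

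**Figure D2:**
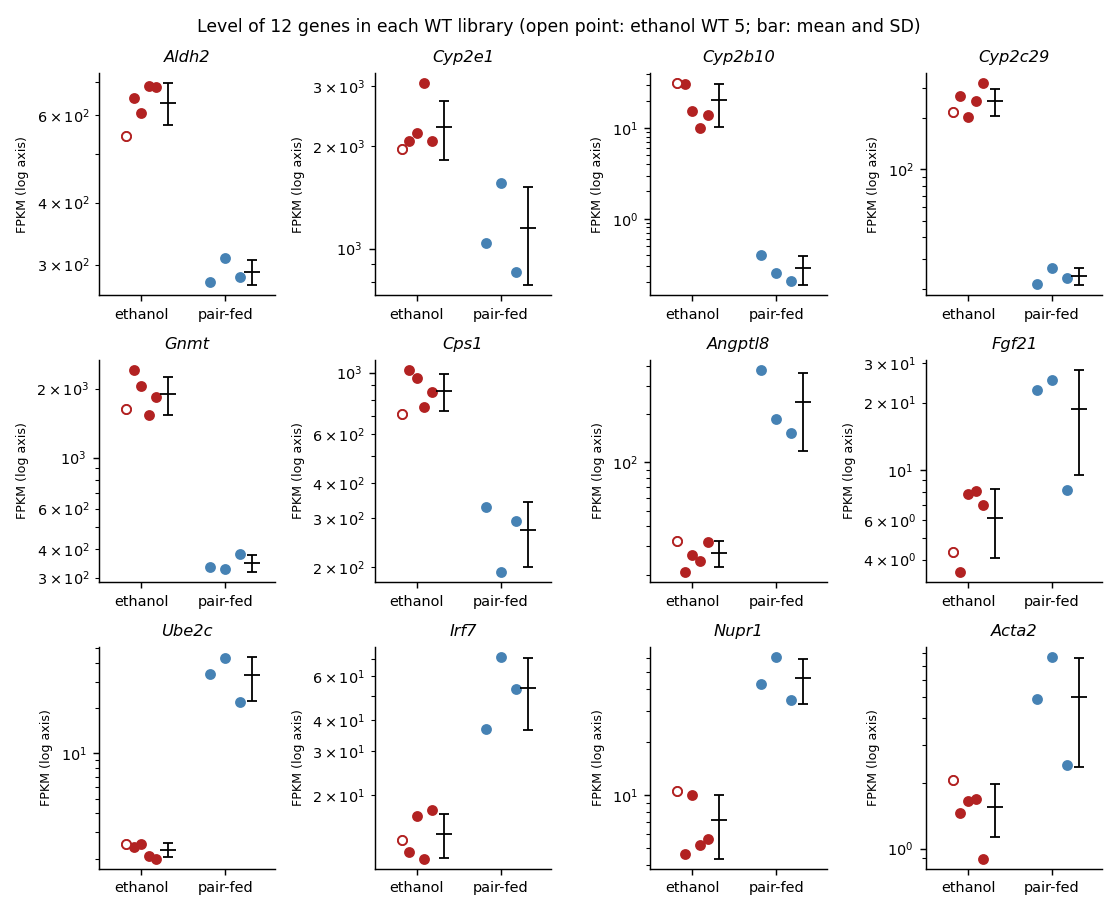
FPKM on a log axis of 12 genes in each WT library, 5 ethanol (red, with ethanol WT 5 as an open point) and 3 pair-fed (blue). Black marks give the mean and SD of the group. The first 6 genes lay higher in every ethanol library and the last 6 lower in every ethanol library, with no overlap between the diets in any panel. The gap was widest for Cyp2b10 and Ube2c.

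Drug-metabolising enzymes held several of the largest rises in the liver. Cyp2b10 (GRCm38 chromosome 7, 25897620 to 25926624, plus strand), a P450 gene known as a target of the receptor CAR, measured 31.4, 31.2, 15.7, 10.1 and 14.1 FPKM under ethanol and 0.398, 0.253 and 0.205 under pair-feeding. Ethanol WT 5 and 6 were the highest and all pair-fed libraries were under 1 FPKM. The means differed 71.8-fold and the log2 difference was 3.94 ± 0.33 (adjusted p = 1.43e-04). Cyp2c29 (GRCm38 chromosome 19, 39269405 to 39330713, plus strand) had 217, 268, 204, 251 and 319.8 FPKM under ethanol and 21.3, 26.6 and 23.2 under pair-feeding. It was high and even in all ethanol libraries, 10.6-fold above pair-feeding with an adjusted p of 7.21e-06. Por, the reductase that hands electrons to the P450s, was 2.8-fold higher at 362 ± 25.3 against 129.7 ± 35.3 FPKM (adjusted p = 2.84e-04). Cyp4a12a, a male-biased fatty acid hydroxylase, went the other way, with 0.678, 1.33, 1.18, 1.28 and 0.757 FPKM under ethanol and 11.8, 10.6 and 11 under pair-feeding. No library overlapped, and the level was 10.7-fold lower under ethanol (adjusted p = 1.03e-05). Over the list, 18 of 46 P450 and receptor genes rose and 4 fell, with a median of 0.44. Cyp2b and Cyp2c genes have near-identical relatives, and how the counting split such reads is not given in the sources used here.

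Conjugation, the step that adds sugars, sulphate or glutathione to drugs, bilirubin and steroids, had 20 of 48 genes higher and 5 lower. Sult2a2, a sulphotransferase of bile acids and steroids, showed the largest rise by the ratio of means among the named genes, with 184, 41.8, 1.48, 23.4 and 13.6 FPKM under ethanol and 0.112, 0.0855 and 0.16 under pair-feeding. The ethanol libraries were far apart from each other, and the ratio of 442 (adjusted p = 0.0076) was 168 without ethanol WT 5. Ugt1a1, which conjugates bilirubin, had 16.2, 71.2, 47.1, 83.9 and 60.3 FPKM under ethanol and 1.27, 3.31 and 2.61 under pair-feeding. Ethanol WT 5 was the lowest of its group and still above every pair-fed library (23.3-fold, adjusted p = 2.98e-04). Ugt1a9 (57.9-fold, adjusted p = 3.42e-04) and Ugt1a6b (24.3-fold, 8.33e-04) followed the same order. These Ugt1a genes share their last exons, so their values are not separate measurements. Gstt3, a glutathione transferase, rose 5.06-fold to 62.7 ± 14.5 against 12.4 ± 2.37 FPKM (adjusted p = 1.17e-04), and Gsta3 rose 3.05-fold (adjusted p = 2.27e-04). Targets of the antioxidant regulator NRF2 were closer to the background, with 10 of 29 higher and 2 lower, and 16 higher with a common sum. Among them Prdx1, a peroxide-removing enzyme, rose 1.77-fold (adjusted p = 0.0024) and the epoxide hydrolase Ephx1 rose 1.91-fold (adjusted p = 0.00296). Hmox1, the haem-degrading stress enzyme, was not called (16.2 ± 3.74 against 14.8 ± 3.49 FPKM, adjusted p = 0.65).

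Other large rises, taken by size alone, included Ncoa4, the receptor that delivers ferritin to lysosomes, with 7.98, 22.4, 19.2, 17.6 and 20.9 FPKM under ethanol and 2.36, 2.04 and 1.98 under pair-feeding. All ethanol libraries were above all pair-fed ones, ethanol WT 5 being the lowest (8.29-fold, adjusted p = 2.34e-04). Gna12, a G protein alpha subunit, had 5.82, 31.2, 25.8, 33.5 and 22.3 FPKM under ethanol and 1.07, 1.84 and 1.61 under pair-feeding (15.7-fold, adjusted p = 7.01e-04). In the iron and haem list, 10 of 31 genes rose and 5 fell, and the median of 0.04 was -0.04 with median-ratio rescaling and -0.04 with quantile normalization. Fech, which inserts iron into haem, rose 2.21-fold (adjusted p = 0.0014), whereas Alad, an earlier enzyme of the same pathway, was 1.66-fold lower (adjusted p = 0.0014).

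Cholesterol synthesis was higher under ethanol: 18 of 25 genes were called higher and none lower, and the median log2 difference was 0.77. Srebf2, the transcription factor that drives the pathway, had 7.88, 15.4, 9.9, 11.4 and 9.8 FPKM under ethanol and 5.16, 3.81 and 5.33 under pair-feeding. The ratio of means was 2.28 (adjusted p = 0.0019).

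Bile acid genes rose as well, with 17 of 29 higher, 2 lower and a median of 0.65. Cyp39a1, an oxysterol hydroxylase of bile acid synthesis, had 26.8, 33.4, 33, 28 and 29.2 FPKM under ethanol and 10.9, 9.94 and 9.46 under pair-feeding. The groups were well apart (2.97-fold, adjusted p = 8.62e-05). Slc10a1, the sinusoidal importer of bile salts, rose 2.38-fold (adjusted p = 1.91e-04). Cyp7a1, the rate-limiting enzyme of the classical pathway, had 16.3, 21.2, 19.2, 14.3 and 15.5 FPKM under ethanol and 9.56, 2.13 and 8.65 under pair-feeding. Pair-fed WT 19 was far below the other pair-fed libraries, and the 2.55-fold difference (adjusted p = 0.0083) missed the threshold in the joint fit of all 4 groups (adjusted p = 0.078).

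Fatty acid synthesis was higher less evenly. Of its genes, 11 of 24 rose and 2 fell, while 5 rose with median-ratio rescaling, 6 with quantile normalization and 18 with a common sum. Acly, which makes cytosolic acetyl-CoA from citrate, had 5.98, 13.6, 13.5, 11.4 and 11.3 FPKM under ethanol and 5.39, 3.83 and 5.0 under pair-feeding. Ethanol WT 5 lay next to the pair-fed libraries and the other ethanol libraries well above them (2.36-fold, adjusted p = 0.0048). Dgat2, which completes triglyceride synthesis, rose 1.82-fold (adjusted p = 5.44e-04). Fasn, the fatty acid synthase, had 7.76 ± 1.86 against 4.86 ± 1.02 FPKM and Scd1, the stearoyl-CoA desaturase, 392 ± 99.2 against 232 ± 72.3 FPKM. Their groups overlapped, and their adjusted p values of 0.032 and 0.031 were 0.098 and 0.11 without pair-fed WT 18. Both calls were also lost with median-ratio rescaling (adjusted p = 0.078 and 0.079). The calls were lost too without ethanol WT 11 (0.063 and 0.063) and without ethanol WT 12 (0.067 and 0.066). Fasn also lost it without ethanol WT 6 (adjusted p = 0.067) or pair-fed WT 19 (0.11), and Scd1 without ethanol WT 7 (0.061) or pair-fed WT 20 (0.13). Elovl3, a male-biased and clock-driven fatty acid elongase, fell strongly, with 0.247, 1.26, 2.26, 2.56 and 0.789 FPKM under ethanol and 14.7, 24.5 and 6.42 under pair-feeding (10.7-fold lower, adjusted p = 9.58e-04).

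Fatty acid oxidation and ketone body genes had 19 of 38 members higher, 3 lower and a median of 0.44. Cpt1a, which admits fatty acids to mitochondria, had 84.3, 143, 136, 150.0 and 106 FPKM under ethanol and 63.2, 60.1 and 53.3 under pair-feeding. The ranges did not meet (2.11-fold, adjusted p = 0.0019). Etfdh, which passes electrons from acyl-CoA dehydrogenases to the respiratory chain, rose 3.67-fold (adjusted p = 4.19e-04) and Echs1, the enoyl-CoA hydratase, 2.5-fold (adjusted p = 3.07e-04). Fabp1, the abundant liver fatty acid binding protein, fell from 9148 ± 3131 under pair-feeding to 3095 ± 709 FPKM under ethanol (adjusted p = 9.86e-04). Lipid droplet genes were near the background, with 7 of 23 higher and 2 lower. Plin5, which couples droplets to mitochondria, rose 2.48-fold (adjusted p = 3.42e-04) and the droplet enzyme Hsd17b13 2.51-fold (adjusted p = 4.84e-04). Plin2, the general droplet coat protein, had 92.2, 129, 131, 173 and 97.8 FPKM under ethanol and 85.1, 185 and 64.4 under pair-feeding. Its groups overlapped, with pair-fed WT 19 above every ethanol library, and it was not called (adjusted p = 0.52). Without that library the adjusted p was 0.042.

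Among lipoprotein genes 5 of 22 rose and 8 fell, and with a common sum 9 rose and 6 fell. Their median of -0.13 was 0.10 with a common sum and 0.01 with quantile normalization, so its sign depended on the scaling. The fallers included small, abundant apolipoproteins. Apoc1 measured 5874 ± 769 against 13484 ± 742 FPKM (adjusted p = 3.24e-04) and Apoc3, an inhibitor of lipoprotein lipase, 2488 ± 585 against 5228 ± 282 FPKM (adjusted p = 0.0013). Abca1, the cholesterol exporter, rose 1.61-fold (adjusted p = 8.79e-04).

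Of the secreted hormones of the liver 10 of 24 were lower and 4 higher. Once each library's trend with gene length was removed 5 were lower, and 6 were lower with a common sum, under which the median of -0.17 was 0.01. Angptl8 (GRCm38 chromosome 9, 21835510 to 21837347, plus strand), a feeding-induced inhibitor of lipoprotein lipase, measured 32.1, 20.8, 26.6, 24.2 and 32.1 FPKM under ethanol and 375, 186 and 152 under pair-feeding. The highest ethanol library was far below the lowest pair-fed one. The level was 8.74-fold lower, -2.99 ± 0.26 on the log2 scale (adjusted p = 1.57e-04). Fgf21, a stress and fasting hormone, had 4.31, 3.53, 7.84, 8.07 and 7.02 FPKM under ethanol and 22.8, 25.1 and 8.18 under pair-feeding. Pair-fed WT 20 lay just above the ethanol range, and the 3.04-fold lower mean (adjusted p = 0.011) was not called without pair-fed WT 18 (adjusted p = 0.053). With the length trend removed its adjusted p was 0.0699. Gdf15, another stress hormone, was 2.32-fold lower (adjusted p = 0.0051). Igf1, the growth hormone effector, was 1.55-fold lower at 55.5 ± 13.3 against 86.2 ± 10.0 FPKM (adjusted p = 0.016, and 0.067 without pair-fed WT 18). Inhbe, which encodes activin E, was not called (12.4 ± 4.88 against 14 ± 4.89 FPKM, adjusted p = 0.68). Selenop, the selenium carrier, rose 1.86-fold (adjusted p = 5.57e-04). Igfbp1, a binding protein that insulin represses, had 196, 115, 95.9, 43.3 and 255 FPKM under ethanol and 29.3, 53.3 and 26.1 under pair-feeding. Ethanol WT 11 fell inside the pair-fed range, and the 3.9-fold rise (adjusted p = 0.016) was lost without pair-fed WT 18 (0.061) or pair-fed WT 20 (0.068).

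Amino acid breakdown and the urea cycle rose in 22 of 40 genes and fell in none, with a median of 0.46. Cps1, the first enzyme of the urea cycle, had 707, 1019.9, 957, 753 and 849 FPKM under ethanol and 329.6, 192 and 293 under pair-feeding. The ethanol libraries were all well above the highest pair-fed one (3.16-fold in the means, adjusted p = 2.86e-04). Tdo2, which opens tryptophan breakdown, measured 1111, 1439, 1324, 1336 and 1452 FPKM under ethanol and 306, 375 and 339 under pair-feeding (3.92-fold, adjusted p = 4.34e-05). Glul, the pericentral glutamine synthetase, rose 2.48-fold (adjusted p = 1.80e-04). In the methionine cycle 10 of 20 genes rose and 2 fell. Gnmt (GRCm38 chromosome 17, 46725664 to 46729168, minus strand), which spends surplus S-adenosylmethionine, had 1626, 2409, 2064, 1534 and 1839 FPKM under ethanol and 335, 326 and 381 under pair-feeding. Both groups were tight and far apart, with a 5.46-fold difference and an adjusted p of 4.34e-05. Csad, an enzyme of taurine synthesis, rose 3.93-fold (adjusted p = 5.05e-04). Gamt, which uses the same methyl donor to make creatine, fell from 246 ± 14.3 to 111 ± 16 FPKM (adjusted p = 2.84e-04). Insulin and gluconeogenesis genes had 14 of 32 higher and 3 lower, and Fbp1, a rate-controlling enzyme of glucose synthesis, rose 3.38-fold (adjusted p = 6.30e-04).

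Genes that mark the zone around the central vein, where CCl4 acts, rose in 9 of 20 cases and fell in 1, and periportal genes rose in 6 of 22 (11 with a common sum) and fell in 3. Hepatocyte identity genes were called higher in 7 of 29 and lower in 5, without ethanol WT 5 in 11 and 5, and with a common sum in 13 and 5. Alb, the albumin gene, was not called at 53498 ± 6189.6 against 43856 ± 3193 FPKM (adjusted p = 0.17, and 0.043 without ethanol WT 5 or 0.0202 with a common sum), whereas Ttr, transthyretin, was 1.86-fold lower (adjusted p = 6.52e-04, and 0.12 with quantile normalization).

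Genes known to differ between male and female mouse liver were split by their known bias after their values had been seen, and are given as a description. Of 9 tested genes known as female-biased, 8 rose and 0 fell, and of 10 known as male-biased, 5 fell and 0 rose. Mup3, a major urinary protein gene, had 149, 353, 1163, 479 and 560.4 FPKM under ethanol and 2088, 2492 and 2292 under pair-feeding. The pair-fed libraries were even and the ethanol libraries spread widely below them (4.24-fold lower, adjusted p = 0.0044). Mup21 measured 0.408, 1.83, 5.3, 1.5 and 1.92 FPKM under ethanol and 15.7, 18 and 17 under pair-feeding (7.72-fold lower, adjusted p = 5.56e-04). Without ethanol WT 7, the highest of its group, the Mup21 ratio was 12. The Mup genes are near-identical copies, and their values are uncertain for that reason. Cyp2b9, a female-biased P450 gene, rose 3.33-fold to 55.1 ± 15.5 from 16.5 ± 5.35 FPKM (adjusted p = 8.93e-04). The whole growth hormone list had 10 of 33 higher and 7 lower, and its median of -0.01 was 0.19 with a common sum and 0.01 with quantile normalization.

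Clock genes rose in 8 of 21 cases and fell in none. These are 38.1% of the list, against 42.2% of all genes called and 29.5% called higher. Hlf, a clock output factor, rose 1.57-fold (adjusted p = 0.0044), Bhlhe40 1.98-fold (adjusted p = 0.00498) and the repressor Cry2 1.92-fold (adjusted p = 0.0054). Clock itself was not called (2.14 ± 0.142 against 2.18 ± 0.271 FPKM, adjusted p = 0.88). Dbp, whose RNA cycles widely over the day, had 29.9, 24.6, 28.8, 22.7 and 15 FPKM under ethanol and 9.72, 8.15 and 41.1 under pair-feeding. Pair-fed WT 20 was above every other library while the other pair-fed libraries were below all ethanol ones. The difference was not called (adjusted p = 0.28), and without pair-fed WT 20 it was (adjusted p = 0.0048, ratio of means 2.71 in place of 1.23). The hour of sampling is not given in the labels.

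Of 28 mitosis genes 19 passed the level filter. Of these, 18 were lower under ethanol and 1 was higher, with a median log2 difference of -1.52. The filter averages over both diets, and genes such as Mki67 passed it only through the pair-fed libraries. Genes kept in this way could hardly be called higher, so the count is not independent of the filter. The summed FPKM of the list was 20.2, 19.4, 22.5, 17.3 and 17 under ethanol and 124, 157 and 84.2 under pair-feeding. Every pair-fed liver was several times above every ethanol liver. Ube2c (GRCm38 chromosome 2, 164769898 to 164778822, plus strand), the ubiquitin-conjugating enzyme of the anaphase-promoting complex, whose promoter is printed above, measured 2.51, 2.38, 2.5, 2.09 and 2.0 FPKM under ethanol and 33.6, 43.3 and 22 under pair-feeding. The level was 14.3-fold lower, -3.32 ± 0.18 on the log2 scale (adjusted p = 1.36e-05). Cdc20, the activator of the same complex, had 1.28, 0.872, 0.919, 1.27 and 0.889 FPKM under ethanol and 10.1, 16.8 and 7.84 under pair-feeding (11.1-fold lower, adjusted p = 1.01e-04). Plk1, a mitotic kinase, was 17.1-fold lower (adjusted p = 1.01e-04), Ccna2, cyclin A, 7.18-fold (adjusted p = 6.77e-05), and Cdca3 8.06-fold (adjusted p = 1.01e-04). Mki67, the proliferation marker, had 0.285, 0.0871, 0.199, 0.215 and 0.20 FPKM under ethanol and 2.25, 2.08 and 1.32 under pair-feeding (9.55-fold lower, adjusted p = 1.77e-04). The member that rose, named after its values were seen, was Ccnf, cyclin F (0.61 on the log2 scale, adjusted p = 0.00404). These are low levels, and the libraries do not say which cell type divided.

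S phase genes followed less clearly, with 8 of 21 lower (5 with a common sum) and 2 higher. Tyms, which makes thymidylate, was 2.34-fold lower (adjusted p = 0.0014), whereas Pcna, the DNA polymerase clamp, rose 1.57-fold with 18.5, 17.9, 18.6, 16.8 and 21.1 FPKM under ethanol and 12.8, 12.5 and 10.3 under pair-feeding (adjusted p = 0.0019). Among p53 targets 6 of 23 rose and 2 fell, and without ethanol WT 5 8 rose and 5 fell. Ccng1, a p53 target, rose 1.88-fold (adjusted p = 9.98e-04). Cdkn1a, the p21 cell cycle inhibitor, had 29.5, 34.2, 22.8, 27.1 and 70.8 FPKM under ethanol and 28.3, 30.0 and 8.08 under pair-feeding. Ethanol WT 12 was far above and pair-fed WT 20 far below the rest, and the difference was not called (adjusted p = 0.17).

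**Figure D3:**
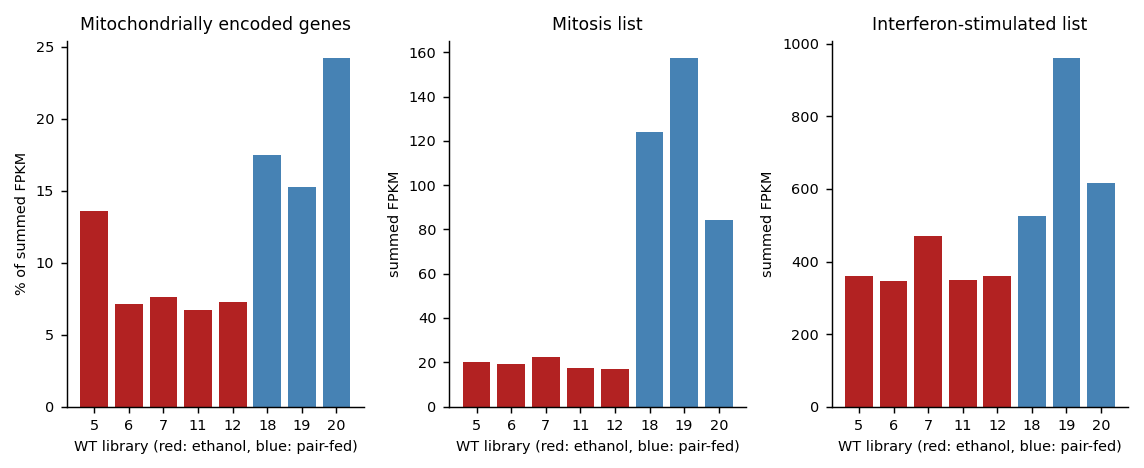
Sums in each WT library (red bars ethanol WT 5, 6, 7, 11 and 12, blue bars pair-fed WT 18, 19 and 20): mitochondrially encoded genes as % of summed FPKM, and the summed FPKM of the mitosis and interferon-stimulated lists. Pair-fed bars exceed all ethanol bars in each panel. Ethanol WT 5 lies nearest to them for the mitochondrial share, at 13.6%, but not for the mitosis genes.

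Interferon-stimulated genes were lower under ethanol in 20 of 30 cases and higher in none, with a median of -0.65. Irf7 (GRCm38 chromosome 7, 141262706 to 141266481, minus strand), the transcription factor that amplifies the interferon response, measured 13.1, 11.8, 16.4, 11.1 and 17.3 FPKM under ethanol and 36.8, 71.5 and 53.1 under pair-feeding. The diets did not overlap (3.86-fold lower, adjusted p = 2.93e-04). Stat2, which carries the interferon signal to the nucleus, had 4.7, 3.34, 5.3, 4.23 and 3.32 FPKM under ethanol and 17.9, 9.06 and 14.7 under pair-feeding (3.33-fold lower, adjusted p = 5.54e-04). Isg15, a ubiquitin-like modifier, had 8.59, 4.84, 7.88, 7.23 and 5.36 FPKM under ethanol and 14.5, 32.7 and 25.8 under pair-feeding (3.59-fold lower, adjusted p = 8.10e-04). The promoters of Stat2 and Isg15 are those printed above. Antigen presentation genes were lower in 6 of 18 cases and higher in none, and 10 were lower with quantile normalization. B2m, the shared light chain of class I molecules, had 2208 ± 272 against 3959 ± 49.3 FPKM (adjusted p = 8.79e-04), and Psmb8, an immunoproteasome subunit, was 2.28-fold lower (adjusted p = 3.27e-04).

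Chemokines and cytokines split, with 4 of 20 higher and 6 lower, and the median of -0.11 was 0.02 with a common sum. Cxcl10, an interferon-induced chemokine, was 2.38-fold lower (adjusted p = 0.0015). Ccl2, which draws monocytes, had 0.446, 0.429, 0.535, 1.01 and 1.02 FPKM under ethanol and 2.03, 3.38 and 1.36 under pair-feeding (3.28-fold lower, adjusted p = 0.0049). It was not called with the length trend removed (adjusted p = 0.072). The adhesion molecule gene Vcam1 rose 1.79-fold (adjusted p = 0.002). Acute phase genes also split, 11 of 33 higher and 6 lower. Serpina3n, a protease inhibitor, rose 2.3-fold (adjusted p = 2.26e-04) and Orm1, orosomucoid, was 2.08-fold lower (adjusted p = 0.0049, and 0.063 with the length trend removed). Lcn2, a neutrophil and hepatocyte injury protein, was not called. It had 129, 54, 37.7, 49.8 and 49 FPKM under ethanol and 169.8, 73.4 and 50.2 under pair-feeding, with ethanol WT 5 and pair-fed WT 18 above the rest (adjusted p = 0.32). Pair-feeding was 1.53-fold above ethanol, and without pair-fed WT 18 the ratio was 0.967. Of 36 complement and coagulation genes 14 were higher and 6 lower. With median-ratio rescaling 6 rose, and with a common sum 2 fell. Mbl2, a lectin that starts complement, rose 3.02-fold (adjusted p = 3.51e-04).

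Immediate early genes, which switch on within minutes of a stimulus, fell in 10 of 23 cases and rose in 1, and with a common sum 4 fell and 2 rose. Fos had 0.523, 0.314, 1.31, 0.152 and 1.23 FPKM under ethanol and 10.3, 17.9 and 5.32 under pair-feeding. All ethanol libraries were under 2 FPKM and no pair-fed one was (15.8-fold lower, adjusted p = 3.56e-04). Ier2 was 2.3-fold lower at 16.9 ± 2.62 against 39 ± 0.967 FPKM (adjusted p = 2.44e-04). Btg2, an antiproliferative gene named after its values were seen, was the member that rose (0.71 on the log2 scale, adjusted p = 0.0093). Such genes also respond to handling of the tissue, and no label gives the time from death to freezing.

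The lists of stress genes had calls in both directions. Called were 53.3% of the ATF4 targets, 42.9% of the endoplasmic reticulum stress genes and 42.1% of the heat shock genes. The share of all genes was 42.2%, so the last 2 lists were near it. Of the ATF4 targets 9 of 30 fell and 7 rose, and the median of -0.04 was 0.12 with a common sum. Nupr1, a stress-induced chromatin factor whose promoter is printed above, had 10.6, 4.6, 9.93, 5.2 and 5.59 FPKM under ethanol and 42.9, 60.7 and 34.5 under pair-feeding (6.41-fold lower, adjusted p = 2.27e-04). Ddit3, which encodes CHOP, was 4.22-fold lower (adjusted p = 6.91e-04). Chac1, a glutathione-degrading target of the same pathway, rose instead, with 1.98, 1.91, 2.64, 3.28 and 3.66 FPKM under ethanol and 0.529, 0.525 and 1.08 under pair-feeding (3.79-fold, adjusted p = 0.0012). Endoplasmic reticulum stress genes rose in 7 and fell in 5 of 28, and with quantile normalization they rose in 4 and fell in 10, with a median just below 0 in place of 0.11. The chaperone gene Canx rose 1.88-fold (adjusted p = 0.0035). Heat shock genes rose in 4 and fell in 4 of 19, and with a common sum rose in 7 and fell in 2. Their median of 0.09 was -0.07 with quantile normalization. Hspa1b, the inducible cytosolic HSP70, was 4.36-fold lower (adjusted p = 8.54e-04), while Hspd1, the mitochondrial HSP60, rose 1.8-fold (adjusted p = 0.00299).

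Few of the scar genes that CCl4 is used to induce were called in either direction. Among 29 fibrillar collagen and matrix genes tested, 2 rose and 2 fell, against 42.2% of all genes called. The fallers were 4 without ethanol WT 5, and with median-ratio rescaling or quantile normalization 4 fell and 1 rose. The median of -0.09 was 0.08 with a common sum. Col1a1, the main fibrillar collagen of scar, had 9.49, 3.79, 4.32, 10.1 and 6.33 FPKM under ethanol and 15.8, 12.5 and 7.43 under pair-feeding. Its groups overlapped and it was not called (adjusted p = 0.076). Without ethanol WT 5 it was (adjusted p = 0.0403), as it was without ethanol WT 11 (0.042) or pair-fed WT 20 (0.0404), with a lower mean under ethanol each time. The same call came with median-ratio rescaling (adjusted p = 0.042). Col3a1 was called lower at 13.3 ± 4.18 against 25 ± 11.6 FPKM (adjusted p = 0.047) with overlapping groups. That call was lost with a common sum (adjusted p = 0.11) and without ethanol WT 6 (0.095), ethanol WT 7 (0.088), ethanol WT 12 (0.076), pair-fed WT 18 (0.21) or pair-fed WT 19 (0.083). Col5a3 was 2.63-fold lower (adjusted p = 0.0064), and Fn1, fibronectin, which hepatocytes also secrete, rose 1.52-fold (adjusted p = 0.0044). The other riser was Col18a1, a basement membrane collagen gene, with 78.7, 109, 102, 119.5 and 117 FPKM under ethanol and 79.3, 71.6 and 80.6 under pair-feeding. Its groups overlapped, and its adjusted p of 0.033 was 0.12 with median-ratio rescaling and 0.12 with quantile normalization. The call was also lost without any one library other than ethanol WT 5 (adjusted p = 0.056 to 0.094).

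Markers of activated stellate cells and myofibroblasts fell in 8 of 20 cases (5 with a common sum) and rose in none, with a median of -0.49. Acta2 (GRCm38 chromosome 19, 34241090 to 34255590, minus strand), smooth muscle actin, had 2.07, 1.46, 1.67, 1.69 and 0.898 FPKM under ethanol and 4.93, 7.69 and 2.43 under pair-feeding. Pair-fed WT 20 was close to ethanol WT 5, the others were apart, and the mean was 3.22-fold lower (adjusted p = 0.0059). Myl9, a contractile light chain, was 3.35-fold lower (adjusted p = 0.0014). S100a11 had 71.6, 28.4, 27.2, 34.1 and 27.5 FPKM under ethanol, with ethanol WT 5 highest, and 124, 111 and 104 under pair-feeding (3.0-fold lower, adjusted p = 0.0014). The summed FPKM of the marker list was 142 to 375 under ethanol, the highest in ethanol WT 5, and 259 to 376 under pair-feeding. Quiescent stellate cell markers rose in 1 and fell in 3 of 17, and fell in 5 without ethanol WT 5. Their median of -0.15 was 0.06 with a common sum. In matrix remodelling 2 of 22 genes rose and 5 fell, but with a common sum 9 rose and 3 fell. The median of 0.02 was -0.04 with median-ratio rescaling and -0.01 with quantile normalization. Timp1, the inhibitor that protects scar from breakdown, had 2.77, 1.3, 0.679, 1.76 and 1.32 FPKM under ethanol and 3.26, 2.78 and 2.57 under pair-feeding. Ethanol WT 5 fell inside the pair-fed range, and the lower mean (adjusted p = 0.035) was not called with a common sum (adjusted p = 0.0698). It was not called either without ethanol WT 6 (0.071), ethanol WT 7 (0.0502), ethanol WT 12 (0.068), pair-fed WT 18 (0.12), pair-fed WT 19 (0.072) or pair-fed WT 20 (0.067). Ecm1, a matrix protein made by hepatocytes, was 1.79-fold lower (adjusted p = 0.002). TGF-beta signalling genes rose in 8 of 24 and fell in 1, so 37.5% were called against 42.2% of all genes. The receptor gene Tgfbr2 rose 2.54-fold at 6.7 ± 0.933 against 2.64 ± 0.62 FPKM (adjusted p = 4.10e-04).

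Macrophage markers were called no more often than all genes (42.2%), and in both directions. Kupffer cell markers rose in 3 and fell in 1 of 20 (20% called), with summed FPKM of 302 to 385 under ethanol and 272 to 371 under pair-feeding. With quantile normalization they rose in 2 and fell in 4, and the median of -0.06 was 0.11 with a common sum. Adgre1, the F4/80 antigen, rose 2.05-fold (adjusted p = 0.0017) and Timd4, a marker of long-lived Kupffer cells, was 2.59-fold lower (adjusted p = 0.0048), both at low levels. Recruited macrophage markers rose in 3 and fell in 7 of 24 (41.7% called), and with a common sum in 5 and 5. Lgals3, galectin 3, was 2.81-fold lower (adjusted p = 5.15e-04) and Cd68, a lysosomal protein of macrophages, 1.94-fold lower (adjusted p = 0.00197). Ctsd of the same list was 1.54-fold higher (adjusted p = 0.0015). Endothelial markers fell in 7 of 26 and rose in none. Without ethanol WT 5 they fell in 11, and with a common sum in 2 with 1 higher, the median being -0.03 in place of -0.22. Sox18, an endothelial transcription factor, was 1.95-fold lower (adjusted p = 7.52e-04). Cholangiocyte markers rose in 3 and fell in 2 of 17 (6 and 1 with a common sum), so 29.4% were called against 42.2% of all genes. Epcam rose 2.51-fold (adjusted p = 0.016) and Cd24a 2.31-fold (adjusted p = 0.013), both highest in ethanol WT 5. The Cd24a call was lost without pair-fed WT 18. Krt18, a keratin that hepatocytes share, was 1.78-fold lower (adjusted p = 0.00797). Erythroid and platelet genes fell in 6 of 11 and rose in none, and their sum was 208 to 640.2 FPKM under ethanol and 649 to 908 under pair-feeding. Hba-a2, an alpha globin gene with a near-identical copy, had 111, 52.2, 31.3, 48.7 and 28.5 FPKM under ethanol and 144, 196 and 153 under pair-feeding (3.02-fold lower, adjusted p = 0.0042). Few lymphocyte markers passed the level filter, 2 of 23 for T and NK cells and 4 of 12 for B cells, and 2 and 3 of these fell. The part of any of these cell types in the changes described here was not tested.

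The 13 mitochondrially encoded genes measured were all lower under ethanol. Their share of summed FPKM was 13.6, 7.14, 7.62, 6.68 and 7.23% under ethanol and 17.5, 15.2 and 24.2% under pair-feeding. Ethanol WT 5 was nearest to the pair-fed libraries and pair-fed WT 20 was the highest. The means were 8.45% ± 2.89 (SD, n = 5) and 19% ± 4.67 (SD, n = 3), with a two-sided exact permutation p of 0.0357, the smallest that 56 splits allow. Cox3 of respiratory complex IV, listed as COX3, had 299, 152, 191, 127 and 156 FPKM under ethanol and 774, 621 and 1004 under pair-feeding (4.32-fold lower, adjusted p = 3.42e-04). COX1, the most abundant of them, was 2.93-fold lower (adjusted p = 9.82e-04), a call lost with quantile normalization (adjusted p = 0.22). ND6, encoded on the other strand, was 6.54-fold lower (adjusted p = 0.0021) and 3.59-fold lower without pair-fed WT 20. With these genes removed and each library scaled to a common sum, 4694 nuclear genes were called.

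Nuclear genes of the respiratory chain, and those of the cytosolic ribosome, moved in both directions. Of 48 nuclear respiratory chain genes 23 fell and 11 rose, and of 35 ribosomal protein genes 15 fell and 5 rose. With a common sum 10 ribosomal protein genes fell and 9 rose, and their median of -0.20 was 0.03. Ndufb7, a small subunit of complex I, measured 274, 175, 185, 164 and 158 FPKM under ethanol and 485, 461 and 464 under pair-feeding (2.46-fold lower, adjusted p = 4.38e-04). Atp5b, the catalytic subunit of ATP synthase, went up to 541, 747, 712, 698 and 652 FPKM from 271, 362 and 250.1 (2.28-fold, adjusted p = 4.25e-04). Sdhd, a membrane anchor of complex II, rose 2.68-fold (adjusted p = 2.27e-04). Rpl27 was 1.85-fold lower (adjusted p = 0.0025) and Rpl3 1.64-fold higher (adjusted p = 0.0017).

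Gene length went with the direction. Genes were put into 5 classes of equal size by summed exon length. The shortest class (median 1576 bases) had a median log2 difference of -0.09, with 18.6% of genes higher and 26.6% lower. The 4 longer classes had medians of 0.12 to 0.17, and 5.29% were lower in the longest. The rank correlation across 10394 genes with a length was 0.17, a description across genes of the same libraries. Respiratory chain genes in the shortest class fell in 19 of 32 cases and rose in 3, and the longer ones fell in 3 of 15 and rose in 8. Ribosomal genes in the shortest class fell in 11 of 22 and rose in 2, and the longer ones fell in 4 of 13 and rose in 3. With each library's length trend removed, 12 respiratory chain genes fell and 14 rose, and 10 ribosomal genes fell and 8 rose. Ethanol WT 5 deviated from the mean of the 8 libraries by 0.13 in the shortest class, and the other ethanol libraries by -0.10 to -0.04. The part of RNA quality or library preparation in this pattern was not tested.

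**Figure D4:**
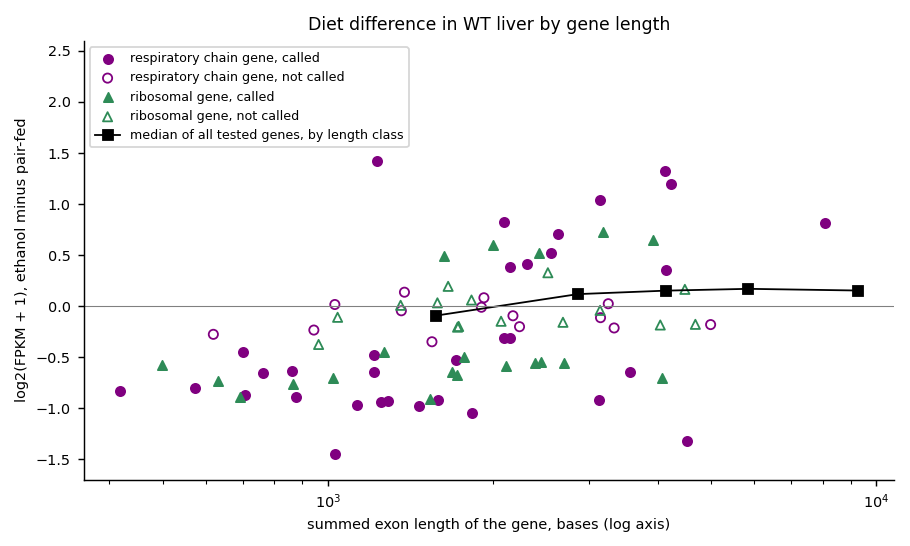
Log2 difference (ethanol minus pair-fed) of nuclear respiratory chain (circles) and ribosomal protein genes (triangles) against summed exon length on a log axis. Filled points were called. Black squares are the median of all tested genes in 5 length classes of equal size, rising from -0.09 to 0.15. Most filled points below 0 lie among the shorter genes, and those above 0 among the longer ones.

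Whether the diet difference depended on genotype was tested as the WT difference minus the Aldh2-/- difference in one fit of all 15 libraries, in which any offset between the tables that is the same for both genotypes on the log2 scale cancels. It was called for 4034 of the same genes (37.3%), 3218 of them with the WT difference above and 816 with it below the Aldh2-/- difference. The median over all genes was 0.23 as deposited and 0.08 with median-ratio rescaling, under which 1770 were above and 1271 below. In the cholesterol list all 25 genes were called with the WT difference above. Srebf2 differed by 1.02 between the diets in WT and by -0.88 in Aldh2-/- (difference 1.90, adjusted p = 2.10e-04). Acly and Me1 of lipid synthesis had differences of 1.88 and 1.94 between genotypes (adjusted p = 0.0014 and 2.54e-04). Fgf21 differed by -1.38 in WT and in Aldh2-/- by -5.44 (difference 4.07, adjusted p = 3.88e-04).

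For Gnmt, Cyp2e1 and Angptl8 the WT difference was the smaller in size. Gnmt differed by 2.43 in WT and 4.12 in Aldh2-/- (adjusted p = 0.0066 for the difference), Cyp2e1 by 1.01 and 2.62 (adjusted p = 0.024), and Angptl8 by -2.99 and -4.36 (adjusted p = 0.0074). The amino acid list had 15 genes with the WT difference below and 5 above. The fall of mitosis genes was called as different between the genotypes for 3 of 19, Ube2c not among them (-3.32 and -2.71, adjusted p = 0.57). Cyp2b10 differed by 3.94 and 5.07, and that difference was not called (adjusted p = 0.13). Irf7 differed by -1.84 in WT and in Aldh2-/- by -0.25 (adjusted p = 0.0101), while Isg15 (-1.66 and -1.79, adjusted p = 0.82) and Stat2 (-1.49 and -1.68, 0.71) were not called. Mitochondrial COX3 differed by -2.15 in WT and 0.45 in Aldh2-/- (adjusted p = 0.0028), and 10 of 13 mitochondrially encoded genes were called with the WT difference below.

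**Figure D5:**
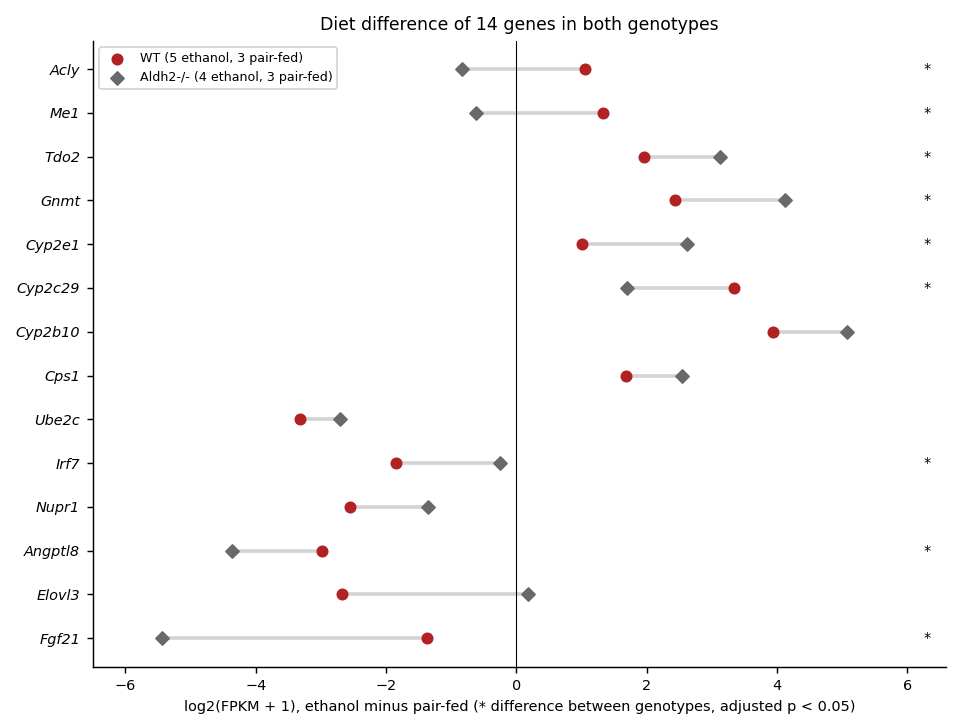
Log2 difference between the diets (ethanol minus pair-fed) of 14 genes in WT (red circles, 5 and 3 libraries) and in Aldh2-/- liver (grey diamonds, 4 and 3 libraries). A star marks a difference between the genotypes with an adjusted p under 0.05. Fgf21 lies at -1.38 in WT and -5.44 in Aldh2-/-, Acly at 1.05 and -0.83, and Ube2c lies below 0 in both.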

How the data were processed

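Bulk RNA of 8 WT mouse livers was used, 5 on ethanol and 3 pair-fed, with 7 Aldh2-/- libraries for the test between genotypes. The deposited values are FPKM per gene, 1 column per library, in 1 table per diet. Per the submitters' processing notes fastp, HISAT2 and HTSeq were used with mm10, and per the labels' protocols reads were paired, of 150 bp. Annotation, fragment totals and any scaling between libraries are not given in the sources used here. Whether counting used strand is not given either, so antisense and overlapping genes are uncertain.

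The tables were joined by gene symbol, and limma 3.58.1 (R 4.3.3) was run on log2(FPKM + 1) (eBayes with a variance trend, Benjamini-Hochberg adjustment) for genes averaging 0.5 FPKM or more. On the log2(FPKM + 1) scale changes of low genes are understated. The 2 WT groups alone were fitted for diet, and all 4 groups for the difference between genotypes. On data simulated for this WT diet comparison (10809 genes), the fit called 77 of 100 genes changed by 1 on the log2 scale, 24 of 100 changed by 0.5, and 4 unchanged genes. The noise of each gene was drawn independently, with as many rises as falls and no difference shared by a library or table. The simulation therefore gives no rate of false calls for the real libraries.

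Named genes were Aldh2, a panel of known liver genes, the 12 largest rises and 12 largest falls without overlap, up to 4 called members of each of 50 lists, and any member of the ethanol, hepatokine and clock lists. Some results under this rule are not reported here. Members and lists were chosen with earlier results of these data known. Of 1438 list entries, 34 matched no symbol in the tables. Positions are from GENCODE vM21 (GRCm38) and promoters from RefSeq (GRCm38.p6). Alternatives were other pseudocounts, filters, scalings and variance models, a replicate block, and each library left out.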

Additional observations from a re-analysis of the deposited data

Results flagged for a closer look

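Of 130 genes named, which do not include Epcam, Cd24a and Ctsd, 14 had 1 library far from the other 4 of the ethanol group. The measure was its gap to the nearest value over the range of the group on the log2 scale. In 13 of these genes that library was ethanol WT 5. Chance alone gives such a mark to about 1 group in 20. Ethanol WT 5 was the lowest, with 2.72 FPKM in Ugt1a9 against 8.52 to 12.9, 2.33 FPKM in Ugt1a6b against 10.4 to 13.8, 5.98 FPKM in Acly against 11.3 to 13.6 and 28.3 FPKM in Fech against 45.7 to 51.1 in the other ethanol libraries. It was also the lowest with 5.82 FPKM in Gna12 against 22.3 to 33.5, 7.98 FPKM in Ncoa4 against 17.6 to 22.4 and 6.29 FPKM in Hlf against 8.21 to 8.37. It was the highest with 2680.1 FPKM in B2m against 2012 to 2172, 129 FPKM in Lcn2 against 37.7 to 54 and 71.6 FPKM in S100a11 against 27.2 to 34.1, and with 25.5 FPKM in Lgals3 against 14.8 to 16.1, 274 FPKM in Ndufb7 against 158 to 185 and 354 FPKM in Rpl27 against 207 to 228. The remaining gene was Cyp2e1, with 3050.5 FPKM in ethanol WT 11 against 1952 to 2185.

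The diet difference was called as different between WT and Aldh2-/- liver for 65 of the same 130 named genes. The test was that of the difference itself (limma, adjusted p under 0.05 over all genes). Over all genes 37.3% were called, and many named genes had been chosen as called in the WT comparison. Median-ratio rescaling moved the balance over all genes from 3218 above and 816 below to 1770 and 1271. Values are the WT difference minus the Aldh2-/- difference on the log2 scale, as deposited. Aldh2 is itself the targeted gene. Among genes of ethanol and aldehyde oxidation it was 0.58 for Aldh2, 0.63 for Aldh6a1, 1.94 for Me1, 1.94 for Acss2, -1.61 for Cyp2e1, 0.83 for Adh1, 1.78 for Adh4 and 1.13 for Aldh18a1. Among enzymes of drug handling and antioxidant defence it was 1.65 for Cyp2c29, -2.12 for Cyp4a12a, 1.95 for Cyp2b9, -0.75 for Por, 1.48 for Gsta3, 2.90 for Ugt1a1, 2.47 for Ugt1a6b, 1.21 for Prdx1, 0.77 for Ephx1 and -1.86 for Hmox1. For cholesterol, bile acid and fatty acid synthesis it was 1.90 for Srebf2, 0.96 for Slc10a1, 1.16 for Dgat2, 1.88 for Acly and 1.64 for Fasn. For fatty acid use, droplets and lipoproteins it was 1.13 for Echs1, 1.48 for Etfdh, 1.90 for Fabp1, 1.04 for Cpt1a, 0.98 for Hsd17b13, 1.64 for Plin2, -1.19 for Apoc1 and -1.23 for Apoc3. For secreted hormones it was 1.38 for Angptl8, 4.07 for Fgf21, -2.73 for Igfbp1, 3.79 for Inhbe and -0.89 for Igf1. For amino acid, methyl and haem enzymes it was -1.16 for Tdo2, -0.53 for Glul, -1.69 for Gnmt, 1.54 for Gamt, 1.39 for Alad and 1.16 for Fech. For the cell cycle it was 0.99 for Mki67, 1.34 for Cdca3, 1.25 for Tyms and 1.26 for Pcna. For chaperones, early response and immune genes it was 1.14 for Canx, 1.04 for Hspd1, -1.47 for Fos, -0.88 for Ier2, -2.34 for Btg2, -1.59 for Irf7, -0.57 for B2m and 1.26 for Mbl2. For matrix, macrophage and blood genes it was -1.31 for Ecm1, -1.91 for Lgals3, -1.52 for Cd68 and -2.20 for Hba-a2. For the remaining named genes it was -2.60 for COX3, -1.74 for COX1, 0.92 for Rpl3, 2.37 for Gna12, 1.52 for Hlf, 1.13 for Bhlhe40 and 2.86 for Dbp.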

How the results depend on the processing

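The count of genes called ranged from 3460 (without pair-fed WT 20) to 5325 (without ethanol WT 5) when 1 library was left out, from 2408 to 3507 for higher and from 870 (without pair-fed WT 18) to 1818 for lower genes. With a common sum 4795 were higher and 803 lower, and with quantile normalization 2215 were lower. A minimum log2 change of 1 left 599, 379 higher and 220 lower. The pseudocount of 0.1, no filter on low values, a minimum mean of 2 FPKM, robust variances, library weights, the joint fit, and 2 alternatives chosen after seeing the data (the length trend removed, and ethanol WT 5 left out together with pair-fed WT 20) kept the counts within 1.5 times. Whether the running numbers in the sample descriptions, which are not the library numbers used here, pair the samples is not stated. Correlations of same-numbered deviations were 0.23, -0.07 and -0.14, too few to decide it. Pair-fed WT 18 correlated best with its own number, and pair-fed WT 19 and 20 did not. With the replicate block, 3042 genes were called and 2108 were higher.

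Some list counts that reached 5 or more changed by over 1.5 times, and all such changes under the 6 settings run for the lists are given, with a few smaller ones. With a common sum (chosen after seeing the data for the lists), the number of members higher went from 11 to 18 in fatty acid synthesis, from 5 to 9 in lipoproteins, from 10 to 16 in NRF2 targets, from 4 to 7 in heat shock chaperones, from 6 to 11 in periportal genes, from 7 to 13 in hepatocyte identity, from 2 to 9 in matrix remodelling, from 3 to 5 in recruited macrophage markers, from 3 to 6 in cholangiocyte markers and from 5 to 9 in ribosomal proteins. The number lower went from 5 to 2 in conjugation enzymes, from 5 to 3 in endoplasmic reticulum stress, from 10 to 4 in immediate early genes, from 6 to 2 in complement and coagulation, from 5 to 3 in matrix remodelling, from 8 to 5 in activated stellate markers, from 7 to 2 in endothelial markers, from 8 to 5 in S phase genes and from 10 to 6 in hepatokines. With mitochondrially encoded genes removed and a common sum, the number of members lower went from 5 to 3 in conjugation enzymes. With median-ratio rescaling, the number of members higher went from 11 to 5 in fatty acid synthesis, from 5 to 2 in lipoproteins, from 7 to 4 in ATF4 targets, from 14 to 6 in complement and coagulation and from 2 to 1 in fibrillar collagen and matrix genes. With quantile normalization, the number of members higher went from 11 to 6 in fatty acid synthesis, from 7 to 4 in ATF4 targets, from 7 to 4 in endoplasmic reticulum stress and from 2 to 1 in fibrillar collagen and matrix genes. The number lower went from 5 to 10 in endoplasmic reticulum stress, from 5 to 2 in hepatocyte identity and from 6 to 10 in antigen presentation. With the length trend removed, the number of members higher went from 3 to 5 in cholangiocyte markers and from 5 to 8 in ribosomal proteins. The number lower went from 6 to 3 in acute phase, from 6 to 3 in complement and coagulation, from 23 to 12 in the respiratory chain, from 10 to 5 in hepatokines, from 3 to 1 in B cell markers and from 4 to 2 in fetal genes. Without ethanol WT 5 (also chosen after seeing the data for the lists), the number of members higher went from 7 to 11 in hepatocyte identity. The number lower went from 3 to 5 in quiescent stellate markers, from 7 to 11 in endothelial markers and from 2 to 5 in p53 targets. The mitochondrially encoded genes have no length in the annotation used under these names and were not in that fit. With these genes removed from the fit, 0 of them could be called. The cause of these changes was not tested. The mitochondrial share differed by -12.4 to -7.91 percentage points with 1 library left out. Its exact permutation p was then 0.0571 to 0.0952, in each case the smallest those groups allow. Total read numbers are not given in the sources used here, so low genes carry no counting interval.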

Other observations

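A few gene groups belong to no section above. Metallothioneins and zinc transporters rose in 3 of 9 and fell in 1, and their summed FPKM was 1911, 663, 341, 462 and 1291 under ethanol and 537, 373 and 384 under pair-feeding, so the groups overlapped. Fetal and tumour-associated liver genes rose in 2 of 17 and fell in 4, their median of -0.20 being 0.01 with a common sum. Of 20 neutrophil markers 7 passed the level filter, of which 1 rose and 0 fell. The bowel markers Lgals4 and Vil1 summed to 7.61 to 19 FPKM under ethanol and 24.7 to 90.2 under pair-feeding. Only Lgals4 differed, with means of 10.89 under ethanol and 52.46 under pair-feeding. Vil1 was barely measured and alike in both groups (means 0.09 and 0.10).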
